A study of Homo sapiens with 2 samples.

Results

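The array that was hybridized with RNA of LNCaP cells carried 11868 probes whose names start with A_23_P, out of 77162 non-control probes. They were taken by that name alone, from the rows of both arrays that hold no control, and they filled 17790 of 175556 non-control spots. Each is a designed DNA oligonucleotide of 60 bases that is fixed to the glass and captures labelled cRNA of a matching transcript. No sequence occurred in more than 1 probe, within the class or outside it. Most had 1 spot (10687 probes), while 291 had 3 spots and 890 had 7 spots.

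LNCaP cells are a widely used line from a human prostate cancer, and they grow in response to androgen. Both groups were kept without hormone in charcoal-stripped serum for 72 h, and the cells were then given 10 nM dihydrotestosterone (DHT), the main androgen of the prostate. RNA was taken at 0 h, with no time for a response, and at 2 h. Each time was measured on 1 array, so that the differences given here have no replicate and no test, and the dose was not varied.

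Androgen acts through the androgen receptor, a transcription factor that enters the nucleus after it binds its hormone and changes the transcription of target genes within hours. A probe on such an array reports one stretch of one transcript. Its signal depends on the amount of that RNA and also on how well the oligonucleotide binds it, and probes rich in G and C form stronger duplexes. For this reason levels were compared between arrays for the same probe, and a signal of one probe was not taken as the amount of RNA relative to another.

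The A_23_P class is thought of as a class of mRNA probes, but the files did not pair probes with genes, so that name could not be checked gene by gene. A reading frame without a stop codon was found in 84.3% of the A_23_P sequences as written and in 80.7% of their reverse complements. The same shares were 82.3% and 77.1% for the A_24_P probes, and 78.8% and 79.4% for the custom probes of the array, whose names start with oebiotech. These shares do not settle whether the members are mainly mRNAs, and markers of the cell line could not be looked up.

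Genes were known for a few members. The study's own probe table, whose entries had been selected on these 2 arrays for a change of at least 2-fold, lists 6 A_23_P probes, all for non-coding transcripts. Their sequences are shown because they span the whole range of base composition over which the class was found to differ. They are written 5′ to 3′ with G and C in capitals.
A_23_P68868 (TUG1, chromosome 22): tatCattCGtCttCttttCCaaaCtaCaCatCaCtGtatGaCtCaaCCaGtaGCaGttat
A_23_P400603 (MGC21881, chromosome 9): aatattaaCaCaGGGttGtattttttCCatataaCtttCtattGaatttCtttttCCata
A_23_P326142 (C7orf54, chromosome 7): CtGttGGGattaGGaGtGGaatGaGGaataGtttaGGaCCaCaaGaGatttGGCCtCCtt
A_23_P79572 (MGC16025, chromosome 2): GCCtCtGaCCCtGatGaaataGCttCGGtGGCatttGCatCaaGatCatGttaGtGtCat
A_23_P25746 (C14orf128, chromosome 14): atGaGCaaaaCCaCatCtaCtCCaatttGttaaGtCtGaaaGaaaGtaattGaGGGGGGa
A_23_P325119 (SNHG11, chromosome 20): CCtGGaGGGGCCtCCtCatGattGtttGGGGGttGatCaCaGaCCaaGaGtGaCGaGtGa

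Detection required that 0.5 or more of the usable spots of a probe were flagged as positive, significant and well above background. At 0 h 4890 A_23_P probes (41.2%) were detected, and at 2 h 7410 (62.4%) were. The 65294 other probes were detected less often on either array, with 22.3% at 0 h and 38.1% at 2 h. Of the A_23_P probes, 4860 were detected on both arrays, 2550 on the 2 h array alone, 30 on the 0 h array alone and 4428 on neither. For 1 member all spots of the 0 h array carried an outlier flag, so it had no 0 h value. In the catalogue classes with the most similar names, the shares at 0 h and 2 h were 35.2% and 58.9% for A_24_P, 29.2% and 49.4% for A_32_P, and 30.5% and 49.2% for A_33_P. The gain from 0 h to 2 h was thus seen in each of these classes, and whether it comes from the cells or from the hybridization cannot be told apart with 1 array per condition.

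Signals were quantile normalized over all non-control spots, which gives both arrays the same distribution, and are given on the log2 scale. Among detected A_23_P probes the log2 signal had a median of 8.59 at 0 h and 7.75 at 2 h, and it ran from 6.50 to 18.68 at 0 h and from 4.81 to 18.52 at 2 h. The lower median at 2 h came with more dim probes above background. Of 1263 A_23_P probes with a log2 signal from 6 to 7 at 0 h, 26.8% were detected, while all 1402 probes at this level at 2 h were. Below it, from 5 to 6, none of 1016 probes was detected at 0 h and 96.4% of 1190 probes were detected at 2 h. From 7 upwards every A_23_P probe was detected on either array. On this normalized scale the limit of detection thus lay at a higher signal on the 0 h array, and it was dim members that were counted at 2 h and not at 0 h. Before scaling, the median local background was 56 at 0 h and 72 at 2 h. The part of the scaling in the limits was not tested.

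Among the 4860 A_23_P probes detected on both arrays, the 2 h minus 0 h log2 difference had a median of -0.09, with quartiles of -0.65 and 0.60 and a range from -3.16 to 4.28. Pearson's r of the log2 signals was 0.88 over these probes, which share the same pair of arrays. At least 2-fold higher at 2 h were 672 (13.8%), where the share among all probes detected on both arrays was 12%. At least 2-fold lower were 600 (12.3%), against 19.2% of all such probes. The other 3588 lay within 2-fold. Counted as the study counts, over the 7440 A_23_P probes detected on at least 1 array and by value, 2044 (27.5%) were higher and 695 (9.34%) were lower, and the background was 27.9% and 13.1%. The share of higher calls was close to that of the whole array, and the share of lower calls was below it by both counts. A low share of lower calls was not particular to A_23_P. Among probes detected on both arrays, 179 of 1647 A_24_P and 49 of 513 A_32_P probes were lower, smaller shares than in A_23_P. For A_33_P 801 of 4211 were lower, a larger share.

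Most of the excess of higher over lower calls rested on probes below the detection limit at 0 h. Of the 2550 probes detected at 2 h only, 1372 were past 2-fold upwards by value and 65 downwards. A lower bound took for the 0 h side the larger of its own log2 signal and 5.65, the lowest value of any probe detected there. By this bound 587 of the 2550 were still past 2-fold upwards. Over all 2550 the bounds had a median of 0.34 and reached 3.57, or 11.9-fold. The lowest detected A_23_P signal at 0 h was 6.50, and bounds taken against it would be smaller for probes below that level at 0 h. These were not computed, so the bounds given are not strict for this class. All 30 probes detected at 0 h only were at least 2-fold lower with the 2 h side set in the same way, against a lowest detected signal of 4.64. Their lower bounds reached 21.2-fold. By lower bounds 1259 A_23_P probes (16.9%) were higher and 695 (9.34%) were lower, with 15.0% and 13.2% over all probes.

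These counts move with the scaling. Without scaling the A_23_P probes detected on both arrays had a median difference of 1.12. Of all calls in the class, 74.6% were higher with quantile normalization over the whole array. This split was 47.2% when the arrays were aligned at their 75th percentile, with 1399 higher and 1566 lower. It was 58.4% with quantile normalization over the A_23_P spots alone, and 99.7% with a shift to the 5 spike-in probes well above background on both arrays, where 5973 were higher and 17 lower. Directions below are relative to the distribution of the whole array, for which the median difference of all probes detected on both arrays was -0.29.

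Base composition went with the difference. The A_23_P sequences hold 3 preferred compositions, with 14.1% of them at 35% G and C, 24.7% at 45% and 11.5% at 55%. In the 736 probes with 35.0 to 38.3% G and C that were detected on both arrays, the median log2 difference was 0.49. It was 0.32 in the 1002 probes with 40 to 43.3%, and 0.14 in the 1477 probes with 45.0 to 48.3%. Above this the sign changed, with a median of -0.51 in the 639 probes with 50 to 53.3% and of -0.61 in the 984 probes with 55.0% or more. The quartiles of the first of these bands were -0.09 and 1.04 and those of the last were -0.97 and -0.24, so that the central ranges did not overlap. The 22 probes with at most 33.3% G and C went against the order, with a median of -0.55.

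The calls followed the same order. Among the probes with 35.0 to 38.3% G and C, 26.2% were past 2-fold upwards at 2 h and 5.43% downwards. Among those with 55.0% or more, 1.42% were higher and 23.2% lower. In all, 408 of the 672 higher probes (60.7%) had less than 45% G and C and 23 had 50% or more. Of the class detected on both arrays, 36.2% had less than 45%. Of the 600 lower probes 352 (58.7%) had 50% or more, a composition that 33.4% of the class detected on both arrays had. Pearson's r between the G and C content and the difference was -0.41 over the 4860 probes, which share both hybridizations. By base it was -0.31 for C, -0.15 for G, 0.28 for T and 0.11 for A. Stretches of 20 bases gave nearly one value for G and C together, with -0.26 for bases 1 to 20, -0.25 for bases 21 to 40 and -0.25 for bases 41 to 60.

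The difference between the ends of the G and C range stood at each level of signal. Split at the limits nearest to the outer quintiles, with ties kept, 1073 probes with at most 40% G and C had a median of 0.44 and 984 probes with at least 55% had -0.61, a gap of -1.05. Within quintiles of the mean signal of both arrays, the gap had a mean of -1.11. In the brightest quintile the median was 0.68 at 35.0 to 38.3% and -0.47 at 55.0% or more, and in the dimmest quintile it was 0.07 and -0.91. Without scaling the gap was -1.22. A shift adds the same constant to all probes of an array, so no shift could change this value. The gap was -1.04 with quantile normalization over A_23_P spots and -0.81 with another background correction (normexp). The sign of a single band did change. With the spike-in shift all bands were above 0, from 0.91 to 2.15, and with the 75th percentile only the band of 35.0 to 38.3% was (0.11).

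Probes of similar classes gave a like order. The medians of the bands from 35.0 to 38.3% and from 55.0% upwards were 0.57 and -0.47 for A_24_P and 0.49 and -0.59 for A_32_P. For A_33_P they were -0.00 and -0.56, so that the lower end of the range had no positive median there. With 1 array per condition the difference between classes was not tested. After subtraction of the median of its band from each A_23_P probe, the SD of the difference went from 0.88 to 0.79, and 445 probes were at least 2-fold above and 473 at least 2-fold below their band. Of the 672 higher probes 376 were among these, as were 317 of the 600 lower ones.

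Detection itself also followed base composition. At 0 h it ran from 9.73% of the 226 A_23_P probes with at most 33.3% G and C, over 22.9% of the 3238 with 35.0 to 38.3%, to 64.9% of the 1520 with 55.0% or more. At 2 h the same shares were 22.1%, 52.2% and 77.0%. The gain was greatest at 35.0 to 38.3%, where 953 probes were detected at 2 h alone and 6 at 0 h alone. Probes of this band thus were seldom detected at 0 h and, where detected, mostly higher at 2 h (518 of 736). The part of probe binding in this was not tested.

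Signal level alone gave no stable order. By quintiles of the mean signal the median log2 difference was -0.50 in the dimmest quintile (5.94 to 7.53) and lay between -0.03 and 0.06 in the other four. Sorted by the 0 h signal, the same probes went from 0.17 in the dimmest quintile to -0.22 in the brightest. Sorted by the 2 h signal they went the other way, from -0.76 to 0.25. A split by a signal that enters the difference fixes part of its direction.

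Short sequence motifs were counted over all probes, without matching for base composition. Only the differences with and without a motif were compared within bands of base composition. AATAAA, the signal that precedes polyadenylation at the end of most mRNAs, was found in 460 A_23_P probes (3.88%), against 7.77% of all probes of the array. Of these, 152 were detected on both arrays. At 40 to 43.3% G and C the median difference was -0.11 in the 37 probes with the motif and 0.35 in those without it, and at 45.0 to 48.3% it was -0.30 in 42 probes and 0.14. The motif on the opposite strand, found in 427 members, gave 0.14 and 0.34 in the first of these bands and -0.16 and 0.14 in the second. ATTTA, the core of AU-rich elements that destabilize mRNAs, was found in 860 A_23_P probes (7.25%) and in 8.03% of all probes. Its medians were 0.10 with and 0.34 without it at 40 to 43.3%, and 0.04 and 0.35 for its opposite strand. Both motifs thus went with lower differences on the printed strand and on the opposite one, and they can share bases in a probe.

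Probes with replicate spots gave the error within an array. The 346 probes with 7 spots that were detected on both arrays had a median SD over spots of 0.16 at 0 h and 0.12 at 2 h, and the median standard error of their difference was 0.08. These errors cover spots of one hybridization and not the cells. Their median difference was 0.27, with 75 at least 2-fold higher and 23 at least 2-fold lower, whereas it was -0.11 in the 4446 probes with 1 spot and -0.47 in the 68 with 3 spots. Of the 346, 17 had 50% G and C or more. Their medians were 0.41 at 35.0 to 38.3%, 0.52 at 40 to 43.3% and 0.12 at 45.0 to 48.3%, and -0.53 in the 5 probes with 55.0% or more. Of the 409 members with at least 3 usable spots on each array and detected on both, 176 (43.0%) had all spots higher at 2 h than at 0 h and 113 (27.6%) had all spots lower. Over all probes of this kind the shares were 26.1% and 52.3%. Members of 3 and of 7 spots differed. Without the rule on usable spots, 19 of the 68 with 3 spots were all higher and 41 all lower. Of the 346 with 7 spots, 158 were all higher and 76 all lower. Neither spots per probe nor base composition was matched in the comparison with all probes. Over 4 equal blocks of the array, the median difference of A_23_P spots ran from -0.09 to 0.05 along rows and from -0.01 to 0.02 along columns.

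The 6 probes of the study's table were on 3 spots each. TUG1, a long non-coding RNA that is widely expressed, gave 8.71 ± 0.12 on the log2 scale at 0 h and 10.91 ± 0.13 at 2 h (SD over 3 spots). The spots of the 2 arrays were far apart, and the difference of 2.20 is 4.59-fold, above the median of 0.49 of the probes of its base composition. It stayed between 1.68 and 3.72 under all scalings tried. This is the value of 1 probe, and other stretches of TUG1 were not compared here. MGC21881, whose probe has the lowest G and C content of the 6 (23.3%), was not detected at 0 h (4.82 ± 1.25) and was at 6.74 ± 0.16 at 2 h. This is 2.13-fold above 5.65, the lowest detected signal of any probe at 0 h. The lowest detected A_23_P signal there was 6.50, so a rise of 2-fold is not assured. By value, the difference of MGC21881 was under 2-fold (0.77) when the background was corrected with normexp. C7orf54 was at 3.61 ± 0.64 and 5.48 ± 0.06, and MGC16025 at 3.81 ± 0.77 and 5.56 ± 0.25. Both were detected at 2 h only and below the lowest detected signal of the 0 h array, so no fold is given.

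The other members of that table were lower at 2 h. C14orf128 was at 8.18 ± 0.08 at 0 h and 6.76 ± 0.12 at 2 h, a difference of -1.42, although its probe has 38.3% G and C and the median of its band was above 0. SNHG11, a host gene of small nucleolar RNAs, was at 8.18 ± 0.07 and 7.13 ± 0.13, a difference of -1.05, with 55.0% G and C and a band median of -0.61. With the spike-in shift both were higher at 2 h, by 0.39 and 0.75, and SNHG11 also without scaling, by 0.36.

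A second way to a name was shared sequence. A_23_P166336 holds 57 bases of a custom probe that the study's table gives to TMEM191A on chromosome 22, shifted by 3 bases. The pair is shown with the shared bases in capitals, as an example of how far 2 designs for one transcript agreed.
A_23_P166336: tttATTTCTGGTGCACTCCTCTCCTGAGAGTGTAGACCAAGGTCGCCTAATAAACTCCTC
oebiotech_17031: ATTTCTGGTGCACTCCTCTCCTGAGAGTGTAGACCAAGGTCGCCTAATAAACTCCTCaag
The A_23_P probe was at 8.78 ± 0.33 at 0 h and 7.90 ± 0.13 at 2 h (SD, 3 spots), a difference of -0.87. Its partner was at 8.93 ± 0.28 and 7.71 ± 0.26, a difference of -1.22. Both were lower at 2 h, and only the partner passed 2-fold. The direction and the call of the A_23_P probe turned with the scaling: its difference was 0.82 with the spike-in shift and 0.42 without scaling, and -1.23 with the 75th percentile and -1.02 with quantiles over A_23_P spots. The sequence also overlaps 6 other custom probes, and 5 of the 7 overlaps hold mismatches, so that near-identical copies may share this signal and the name is uncertain.

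Such pairs were found throughout the class. A run of at least 30 identical bases on the same strand was shared in 321 pairs that held 275 A_23_P probes, 250 of them with a custom probe. In 161 pairs both probes were detected on both arrays, and the 2 differences had a Pearson's r of 0.94 and a median absolute gap of 0.15. The gap was under 0.5 in 142 of the 161 pairs and reached 1.34. In 48 of these 161 pairs the A_23_P probe was past 2-fold, its partner had the same sign in all 48, and in 39 it was past 2-fold as well. Opposite signs occurred among the 161 pairs too, as for A_23_P67127 (-0.70) and A_33_P3257279 (0.64). The other pairs are not covered by these values, and some of them also had opposite signs. Agreement was not computed for pairs with a probe detected on a single array or on none. Outside that run 82 of the 321 pairs had mismatches, and no pair was identical over the whole sequence. The pairs share bases, hence in part their composition, and the RNA and the arrays. Some A_23_P probes enter several pairs, so the pairs are not independent.

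Position gave further names. The whole sequence of 28 A_23_P probes lies in the window from 250 bases before to 50 bases after the start of a RefSeq gene (assembly GRCh38.p14), 26 of them on the strand opposite to that gene. For 16 of the 28, a single gene with a known strand spans the probe on the same strand, and all 16 are protein coding. Exons are not in the tables used, so the part of the gene could not be given. Both arrays detected 8 of the 16 probes, 2 were detected on the 2 h array alone, 1 on the 0 h array alone and 5 on neither. With the exception of JPT1 they had 1 spot and no error within an array.

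Of the 8 detected on both arrays, 1 was past 2-fold upwards and 1 downwards. COG5, a subunit of the Golgi tethering complex (chr7:107203478-107203537, minus strand, 40% G and C), was at 7.63 at 0 h and 9.05 at 2 h, a difference of 1.42 or 2.68-fold. ZDHHC20, a palmitoyltransferase (chr13:21376446-21376505, minus strand, 40%), was not detected at 0 h (6.30) and was at 8.54 at 2 h, 4.72-fold higher by value. Its 0 h value lay below 6.50, the lowest detected A_23_P signal of that array. MIPEPP3, whose strand was not known, also spans this probe, so the name ZDHHC20 is uncertain. PRC1, which bundles microtubules in cytokinesis (chr15:90966196-90966255, minus strand), was at 8.02 and 8.67, within 2-fold. ZMYND11, a reader of histone methylation (chr10:248948-249007, plus strand), was at 7.82 and 8.70, also within 2-fold. JPT1 (chr17:75136008-75136067, minus strand) was bright on both arrays, at 11.76 ± 0.15 and 11.61 ± 0.13 (SD, 7 spots), with a difference of -0.15. COG5 and ZDHHC20 remained at least 2-fold higher by value under all settings tried, with lowest values of 1.07 and 1.34.

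PYCARD, the adaptor of inflammasomes (chr16:31201649-31201708, minus strand, 55.0% G and C), was at 6.99 at 0 h and not detected at 2 h (4.86), 4.38-fold lower by value. Its difference was -0.19 with the spike-in shift and -0.58 without scaling, both within 2-fold, and -1.003 with normexp. NKG7, a granule protein of cytotoxic lymphocytes (chr19:51371692-51371751, minus strand, 51.7%), was at 8.01 and 6.35, a difference of -1.66, and with the spike-in shift it was 0.19. CD27, a receptor of lymphocytes (chr12:6451474-6451533, plus strand, 55.0%), was at 6.89 and 6.26, a difference of -0.63 within 2-fold, and its direction turned with the spike-in shift (1.38) and without scaling (0.98). These 3 probes belong to the bands of base composition with negative medians, and the part of composition in their values was not tested. RTBDN, a riboflavin-binding protein of the retina, was at 11.27 and 11.36, and MYOG, a transcription factor of muscle, at 8.58 and 8.26. MFAP2, a protein of microfibrils, was dim on both arrays (5.23 and 5.05) and detected at 2 h only. HERC6, NAA38, TAS2R1, TMEM196 and RPRM were detected on neither array, and 4 of these 5 probes have 35.0% G and C.

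Among probes without a gene name, the largest difference on both arrays was that of A_23_P252306, from 7.04 at 0 h to 11.32 at 2 h (4.28, 1 spot, 36.7% G and C). The largest in the other direction was that of A_23_P46039, from 9.67 to 6.51 (-3.16, 1 spot, 43.3%). With 7 spots, A_23_P162874 went from 9.60 ± 0.13 to 12.40 ± 0.14, a difference of 2.80, and A_23_P101380 from 9.34 ± 0.47 to 7.32 ± 0.13, a difference of -2.01. Both have 45.0% G and C, so that these 2 differ in direction at one composition. These 4 probes kept their sign under all scalings tried.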

How the data were processed

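RNA of LNCaP cells at 0 h and 2 h of 10 nM DHT was labelled with Cy3 and hybridized to 1 Agilent array each. The authors deposited the scanner output of Agilent Feature Extraction 10.7.1.1 (from the submitters' processing notes), with a background-corrected intensity per spot, and a table of log2 values that their methods describe as quantile normalized. The columns of that table had medians of 4.43 and 4.43, and its differences for A_23_P probes correlated with those used here at 0.999. Its log2 scale and direction were thus known and its centring was not.

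Quantile normalization, the method of the study, was applied to the intensities of 175556 non-control spots, which were converted to log2 and averaged per probe without outlier spots (68 and 81 A_23_P spots). No spot was saturated. Both arrays are on 1 slide and came from 1 scan. Normalized values were compared with those of limma 3.58.1 and did not differ. The calls were also run on simulated copies of the 0 h array. These copies held no effect of base composition and no probe detected on 1 array alone, so they do not bear on such calls. Python 3.11.15, numpy 2.4.6, pandas 2.3.3 and R 4.3.3 were used. No test was possible with 1 array per group.

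Members and lists were chosen with earlier results of these data known. Planned gene lists, cell type markers and the match to proteins could not be applied without a table of probes and genes; of the markers only NKG7 was placed. The rule for named genes took the probes of the study's table and, where no name was known, at most 2 probes in each direction by ID. The probes named by shared sequence or by position, and the 7-spot probes, were chosen after their values had been seen. Alternatives were other scalings, backgrounds, detection rules and thresholds, the deposited log2 table, and splits by signal.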

Additional observations from a re-analysis of the deposited data

How the results depend on the processing

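Counts of A_23_P probes detected on at least 1 array were 7440 with every scaling, 4860 when detection on both arrays was required and 11867 without a filter. Higher probes (2044) numbered 5973 with the spike-in shift, 5066 without scaling, 762 with normexp, 672 with detection on both arrays and 1127 at 3-fold. Lower probes (695) numbered 1566 with the 75th percentile, 17 with the spike-in shift, 47 without scaling, 1073 with quantiles over A_23_P spots, 257 with normexp, 1160 without a filter and 164 at 3-fold. The median difference (-0.09) was -0.52 with the 75th percentile, -0.27 with quantiles over A_23_P spots, 1.52 with the spike-in shift, 1.12 without scaling and 0.027 without a filter. The low-signal minus high-signal difference (-0.48) reversed to 0.42 with each shift and without scaling, to 0.020 without a filter and to 0.39 by the 0 h signal. It was -0.25 with normexp and -1.01 by the 2 h signal. The high-GC minus low-GC difference (-1.05) was -1.22 without scaling and hence also with each shift, -0.81 with normexp and -0.67 without a filter. Without a filter the GC limits were set anew over all members, so that value compares other groups of probes. The cause of these moves was not tested. Of the named probes past 2-fold, C14orf128 (0.39), SNHG11 (0.75) and NKG7 (0.19) reversed with the spike-in shift and SNHG11 (0.36) without scaling. Of 216 values of named probes under other settings, 102 moved by less than the spread over spots (0.16 or the probe's own SD) and 114 by more. The sign changed in 34 of the 216: in these 4 and in 30 of probes within 2-fold or detected on neither array. Of these 30, 14 were of 6 detected probes, among them TMEM191A (0.82 and 0.42), CD27 (1.38 and 0.98), MYOG (1.38 and 0.98) and JPT1 (0.90 and 0.50) with the spike-in shift and without scaling.

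Chosen after seeing the data, lower bounds against the lowest detected signal of any probe gave 1259 higher probes, and the GC-centred difference gave 445. The 7-spot probes alone gave a median of 0.27 and a high-GC minus low-GC difference of -0.34. Its GC limits were set within these 346 probes, of which 17 had 50% G and C or more, so it cannot be set beside -1.05.

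With 1 array per condition, culture, RNA and hybridization cannot be told apart from treatment. On the normalized scale the 0 h array had the higher detection limit, so differences of probes not detected there are not exact. No paired analysis was possible because each group has 1 array. Probes of 1 spot have no error of their own.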
